A study of Rattus norvegicus with 9 samples.

Results

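Small RNA of the hippocampal CA1 field was compared between 3 libraries labelled HPC0h and 3 labelled tGCI26h, out of 9 libraries in the whole series. All came from male Wistar rats, described as adult and aged 7 to 8 weeks. tGCI is transient global cerebral ischemia, an interruption of blood flow to the whole forebrain, and its label carries the hour 26. The label HPC carries the hour 0 and is not expanded, and no label says whether HPC0h animals also had ischemia, how long the ischemia lasted, or from which event either hour was counted. The libraries were chosen by their column headings, which carry no replicate number, so they are named here by group and letter. The tGCI26h headings begin with R and hold the hour 26. The headings taken as HPC0h begin with P and do not spell the group. They were assigned by the choice of columns fixed for this comparison, and no other columns were left for HPC0h. HPC0h a, b and c and tGCI26h a and b have headings with 3 numbers each, which may stand for pooled animals although no label says so. The third ischemia library has a heading without numbers and is called tGCI26h u. Where libraries share an animal or a pool is not stated, so every p-value measures only the spread between these libraries.

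PIWI-interacting RNAs (piRNAs) are small RNAs, longer than microRNAs, that guide PIWI proteins to silence transposons, mainly in the germline. Many begin with U, and those made by the ping-pong cycle carry an A at position 10. MicroRNAs guide Argonaute proteins to messenger RNAs through the seed, bases 2 to 8. Fragments of tRNA, Y RNA and rRNA also fall in the size range of piRNAs, and CA1 pyramidal neurons are known for dying days after global ischemia. CA1 tissue holds neurons, glia and vessels, and in such bulk samples fewer cells of a type and less RNA per cell cannot be told apart.

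The authors listed 5794 entries of 18 to 39 nt with their sequences, of which 3389 had a value above 0 in at least 1 of the 6 libraries. Values are tag counts that the authors normalised and rounded to whole numbers, and the 6 totals of 984830 to 991058 reflect that scaling, so the sequencing depth is unknown. Entries overlap heavily. In 11823 of 11823 pairs in which 1 sequence lay inside another, the longer entry was at least as high as the shorter in all 9 libraries, so overlapping entries are not separate measurements. Entries sharing an exact run of 16 nt were therefore joined into 611 families, of which 264 held 1 entry and the largest held 106, and a family is named by its most abundant entry. Its value is the sum over its entries and may count a tag more than once. Names of the form rno_piR mark catalogued piRNAs, 91 of 512 of which were above 0, and 967 entries matched a rat microRNA in RefSeq. Some catalogued piRNAs also matched a microRNA, and these count in both classes.

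Library tGCI26h u stood apart from the numbered libraries. It held 708 entries above 0, against 2798 to 2936 in the other 5. The median of its values above 0 was 248 tags, against 5 or 6 elsewhere. The lowest value that at least 5 entries shared was 34 tags in it and 1 tag in each of the others. Each comparison was therefore made with all 6 libraries and with the 5 numbered ones. Sham u, the unnumbered library of the Sham group, went the same way to a lesser degree. It held 1201 entries above 0, with a median of 45 tags and a lowest shared value of 10. MicroRNA markers of neurons were abundant in the 5 numbered libraries. The microRNA sequences used for matching did not include miR-124, so no entry could be matched to it and its level is unknown here. The leading entries of the neuronal and brain list summed to 193963 to 209836 tags in HPC0h, 181046 and 183552 in tGCI26h a and b, and 83296 in tGCI26h u. The microglial and leukocyte list summed to 137 to 167 tags in the numbered libraries, nearly all of them miR-146a-5p, with miR-223-3p at 0 or 1. No entry was matched to miR-142 or miR-155, so this sum does not measure how many such cells were present. miR-451-5p, which marks erythrocytes, held 28 to 39 tags in the numbered libraries and 813 in tGCI26h u.

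The sequences below are the catalogued piRNAs that lead a family of their own and whose values separated the groups in all 6 libraries. The first pair matched short motifs of the B1 SINE, a rodent repeat, and are reverse complements of each other over 28 nt, which the capitals mark. In the other 4, capitals mark bases 1 and 10.
rno_piR_009428: UACAAAGUGAGUUCCAGGACAGCCAGGGc
rno_piR_000618: CCCUGGCUGUCCUGGAACUCACUUUGUAg
rno_piR_017990: AgcagcaaaUacacccaggaggaguagaa
rno_piR_014971: CaaggcacuUcuggcuuucugaaaggc
rno_piR_011022: UaugguuuaCugugugaacauagccacaag
rno_piR_022116: UgaaauaaaAcaaaacuguaagaagcccag
Of these 6, rno_piR_009428 and rno_piR_022116 have both the U at base 1 and the A at base 10. The motif GGACAGCC (B1, searched on both strands) is carried by both members of the first pair and by 0.155% of all 5794 entries.

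These 6 catalogued piRNAs were all lower in HPC0h than in ischemia, and 1 passed the adjusted test. In HPC0h a, b and c rno_piR_009428 held 76, 67 and 58 tags, and in the ischemia libraries 250 (a), 233 (b) and 248 (u). Every HPC0h library lay below every ischemia library. The numbered ischemia mean was 3.60 times the HPC0h mean of 67 ± 9 (SD, n = 3). In the 5 numbered libraries rno_piR_009428 fell by 1.84 on the log2 scale in HPC0h (SE 0.14), with a limma adjusted p of 0.0450 over 510 families. It was 1 of 3 families that passed there (0.588% of those tested), and it did not pass with all 6 libraries (log2 -1.86, SE 0.97, adjusted p = 0.591). Its own values did not spread more with u, which lay between a and b (ischemia SD 9.29, n = 3). The limma SE also draws on the spread of the other families, so it does not measure the spread of this entry alone. The limma call in the 5 numbered libraries lay near the threshold and passed in 10 of 24 settings, with adjusted p from 0.0163 to 0.260 and log2 differences from -1.94 to -1.71. It was lost without any 1 of the 5 libraries (0.0565 to 0.168), with median-of-ratios, TMM or quantile scaling (0.106 to 0.164), with all 3 groups in 1 fit (0.260), without a trend (0.0653), with a pseudocount of 5 (0.0582) and under 3 other rules for joining entries (0.0503 to 0.0545).

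Its reverse complement, rno_piR_000618, held 16, 14 and 10 tags in HPC0h and 47, 30 and 35 in tGCI26h. Both strands of this B1 sequence were thus lower in each HPC0h library than in any ischemia library. The difference for rno_piR_000618 was -1.45 (SE 0.30) on the log2 scale in the 5 numbered libraries and missed the threshold (limma adjusted p = 0.306). Matches to B1 motifs together took 0.00869% ± 0.00140 of the HPC0h totals and 0.0297% ± 0.00140 of the tGCI26h totals (SD, n = 3 each). Nearly all of these tags came from rno_piR_009428 and rno_piR_000618, so the share restates their values and is not a separate result. That share did not overlap between the groups (exact two-sided permutation p = 0.1, the smallest that 3 against 3 libraries allow; adjusted p = 0.46 over 23 classes). As a share of tags outside microRNA matches it did overlap, at 0.106%, 0.0898% and 0.0806% in HPC0h against 0.294%, 0.275% and 0.0632%, the last in u, which lay below every HPC0h library.

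rno_piR_017990 held 25, 27 and 22 tags in HPC0h and 63, 64 and 72 in tGCI26h, a numbered mean 2.57 times as high in ischemia. rno_piR_014971 held 60, 71 and 76 against 125, 137 and 126 tags. rno_piR_011022 held 120, 126 and 112 against 208, 174 and 153 tags. None of the 3 overlapped between the groups, and none passed. In the 5 numbered libraries the log2 difference of rno_piR_017990 was -1.33 (SE 0.12, limma adjusted p = 0.0518), that of rno_piR_014971 was -0.92 (SE 0.14, adjusted p = 0.182) and that of rno_piR_011022 was -0.67 (SE 0.12, adjusted p = 0.217). rno_piR_022116, which lay under the 10 tags needed to be named and was picked after its values were seen, held 2, 3 and 2 tags against 8, 9 and 7 (log2 -1.52, SE 0.17, adjusted p = 0.109 in the 5 numbered libraries). rno_piR_017990 lay just outside the threshold, and without library u it passed the adjusted limma test in only 4 of 23 settings. These were a mean of at least 10 tags (0.0486), no filter (0.0395), the most abundant member in place of the sum (0.0416) and all 7 numbered libraries of the series in 1 fit (0.0355). With library u it passed in 1 of 23 settings.

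The Sham libraries a, b and u, which enter no test here, placed these 6 entries differently. rno_piR_009428 held 200, 203 and 186 tags in Sham, near its ischemia values. rno_piR_014971 held 65, 72 and 83 tags there, within or near its HPC0h range. rno_piR_011022, rno_piR_017990 and rno_piR_000618 were at 16 to 20, 7 to 12 and 3 to 5 tags in Sham, under both other groups, and rno_piR_022116 was at 9 to 12, above HPC0h and overlapping ischemia at 9 tags. The 6 entries thus share their order between HPC0h and ischemia but not their place relative to Sham. In Sham u, rno_piR_017990, rno_piR_000618 and rno_piR_022116 held 7, 5 and 9 tags, below the lowest shared value of 10 in that library. The only other values below 10 there were also of catalogued piRNAs, rno_piR_000553, rno_piR_022845 and rno_piR_025697, at 1, 3 and 1 tags. Why these values lay so low was not tested.

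**Figure D1:**
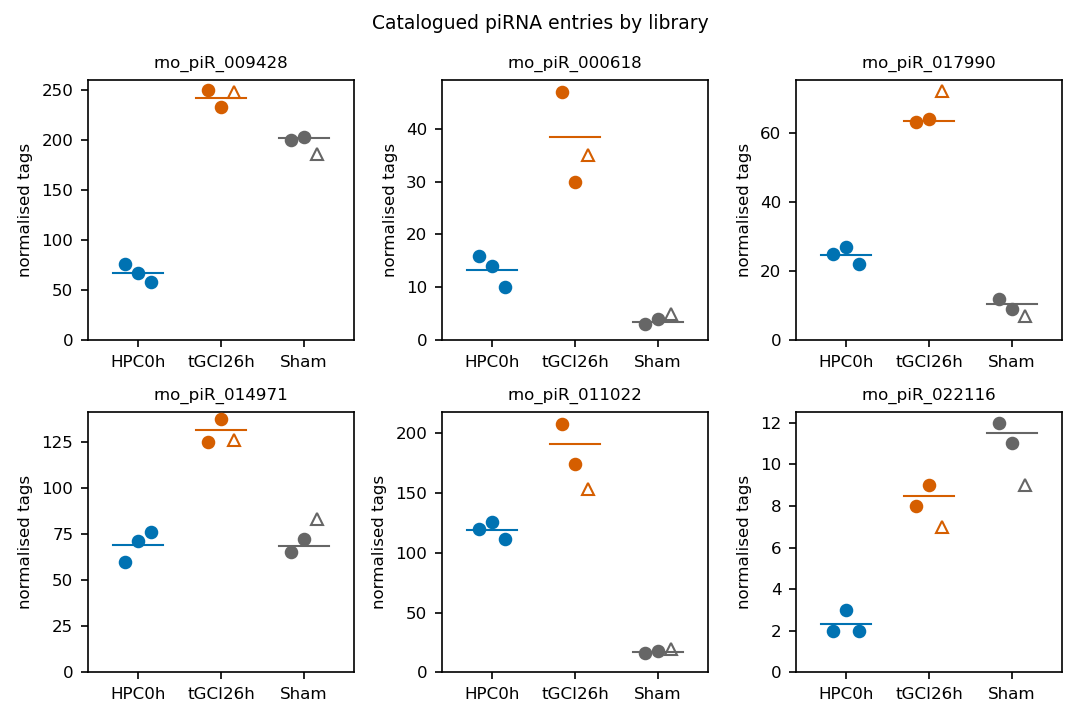
Normalised tags per library for 6 catalogued piRNA entries in HPC0h, tGCI26h and Sham. Filled circles are numbered libraries, open triangles are unnumbered ones, and bars are means of the numbered libraries. In every panel the HPC0h points lie below the tGCI26h points, for example 58 to 76 against 233 to 250 tags for rno_piR_009428.

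Among all 50 families led by a catalogued piRNA and tested in the 5 numbered libraries, 1 fell by the adjusted test and 0 rose. At an unadjusted p below 0.05 and at least 1.5-fold, 6 were lower and 0 were higher in HPC0h, the 6 entries above. Over all 510 families the same count was 8 lower (1.57%) and 12 higher (2.35%). Values did not overlap between the groups in the same 6 of 50 catalogued families, all lower, against 26 of 510 families lower (5.1%) and 62 higher (12.2%). The median log2 difference was -0.17 over the 50, with 36 below and 14 above 0, and 0.02 over the 510. The other catalogued families overlapped between the groups. As single entries inside larger families, 3 more catalogued piRNAs separated in all 6 libraries. rno_piR_005567, described with glycine tRNA, was lower in HPC0h. rno_piR_005597 was higher, at 54, 46 and 51 tags against 37 and 45, and so was rno_piR_000606, at 52, 39 and 46 against 32 and 37, and both had no value in library u. None of the 3 passed in the 5 numbered libraries (limma adjusted p = 0.462, 0.873 and 0.873 over entries). Among the more abundant families that overlapped was rno_piR_012738, which also matches miR-3068-5p. It held 501, 568 and 468 tags in HPC0h and 429 and 582 in tGCI26h a and b. Another was rno_piR_005700, at 254, 328 and 231 against 328 and 419.

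**Figure D2:**
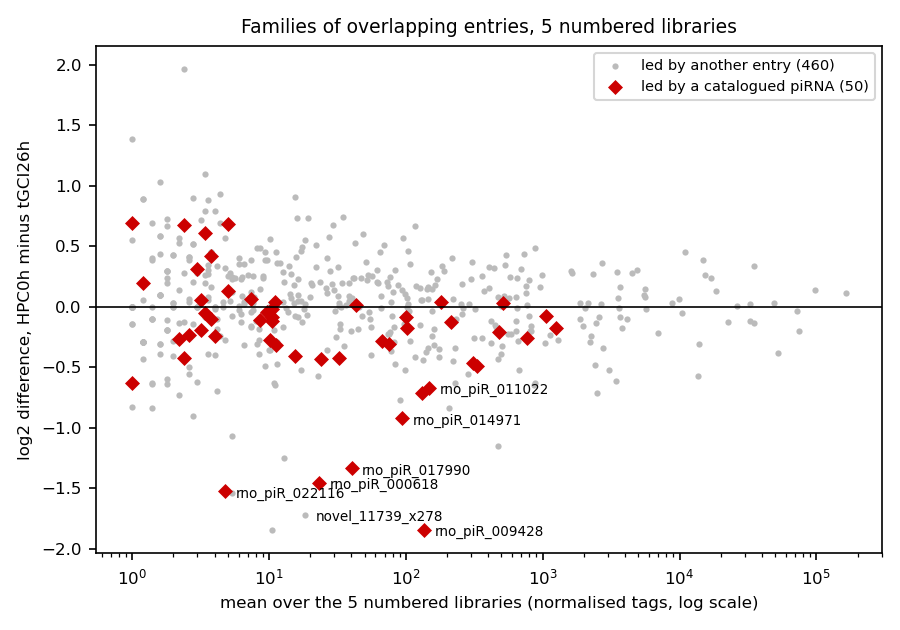
Log2 difference between HPC0h and tGCI26h in the 5 numbered libraries for 510 families, against their mean in normalised tags (log scale). Diamonds are the 50 families led by a catalogued piRNA; the 6 labelled diamonds lie between -1.84 and -0.67.

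Values in tGCI26h u were also set against those in a and b, entry by entry. The 4 values below 34 tags in that library belonged to catalogued piRNAs, rno_piR_000553, rno_piR_022116, rno_piR_022845 and rno_piR_025697, at 3, 7, 2 and 8 tags. Of the catalogued entries that overlap no other entry, 12 had a value in tGCI26h u and a mean of at least 1 tag in tGCI26h a and b, and 10 of the 12 agreed within 2-fold (83.3%). Of the entries not catalogued 63 of 508 did (12.4%), and of those without overlap 0 of 10. All 6 entries shown above are among those 10, but they were chosen by values that include u. An entry lower in HPC0h could separate in all 6 libraries only with a value in u above every HPC0h library. Their place among the 10 is in part set by that choice. A further 14 catalogued entries without overlap had a mean of at least 10 tags in tGCI26h a and b and no value in u. An example is rno_piR_012452, which also matches miR-17-5p, at 207 and 243 tags in a and b. The values of the 6 in tGCI26h u thus lay near those in a and b, unlike most uncatalogued values there, and rno_piR_022116 also lay below 34 tags; why this was so was not tested. The limit of 2-fold was chosen after the data had been seen.

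**Figure D3:**
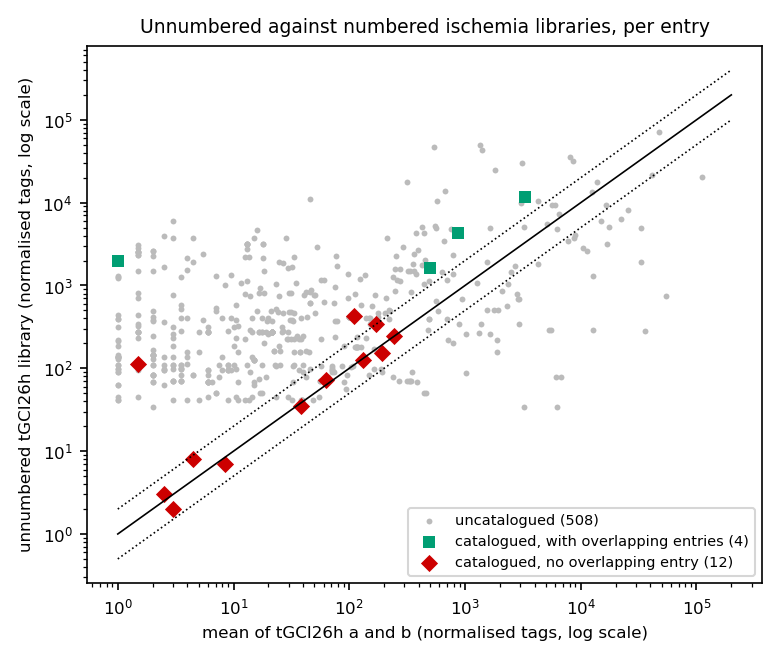
Value in the unnumbered ischemia library against the mean of tGCI26h a and b, in normalised tags on log scales, for entries with a value in both. The solid line marks equal values and dotted lines 2-fold; 10 of 12 catalogued piRNAs without overlapping entries (diamonds) lie within 2-fold, against 63 of 508 uncatalogued entries (grey).

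Fragments of glycine tRNA were the most abundant family outside microRNAs to separate the groups, and they too were lower in HPC0h. Such fragments are cut from mature tRNAs in the anticodon loop and are known to rise in many stressed cells. The sequences below show a catalogued entry and the leading entry of the family, which differ near the 5′ end, with the motif GUGGUUCAG (given strand only, in 0.380% of all entries) in capitals.
rno_piR_005567: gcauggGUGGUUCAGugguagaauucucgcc
novel_3169_x1751: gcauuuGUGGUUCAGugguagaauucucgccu
The family of 33 entries led by novel_3169_x1751 summed to 9487, 15010 and 10218 tags in HPC0h and to 16990 (a), 16718 (b) and 30881 (u) in ischemia. HPC0h b was near the ischemia libraries and a and c were well below. Neither fit passed (5 numbered libraries, log2 -0.57, SE 0.24, limma adjusted p = 0.635; 6 libraries, -0.86, SE 0.43, adjusted p = 0.591). With median-of-ratios scaling of the 6 libraries the difference turned to 0.01. Entry rno_piR_005567 held 2067, 2452 and 2105 tags in HPC0h and 3453, 3153 and 11747 in tGCI26h, with no overlap, and missed the threshold in the 5 numbered libraries (log2 -0.58, limma adjusted p = 0.462). Glycine tRNA motifs took 0.927%, 1.48% and 1.00% of the HPC0h totals and 1.68%, 1.65% and 3.08% of the tGCI26h totals (exact two-sided permutation p = 0.1, adjusted p = 0.46).

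A smaller family with a tRNA T arm, the loop near the 3′ end of tRNAs, had a larger fold. Its leading entry, novel_11739_x278, and the member carrying the T arm motif GGUUCGA (capitals; given strand only, in 1.67% of all entries) are printed here.
novel_11739_x278: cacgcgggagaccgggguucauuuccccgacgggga
novel_5276_x845: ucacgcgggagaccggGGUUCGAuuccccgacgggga
The family of 33 entries held 10, 12 and 6 tags in HPC0h, 30 and 34 in tGCI26h a and b, and 5773 in tGCI26h u. The numbered mean was 3.43 times as high in ischemia, with no overlap, and the difference missed the threshold (log2 -1.72, SE 0.32, limma adjusted p = 0.217 in the 5 numbered libraries). With a shared run of 14 nt it merged into a larger family, whose difference turned to 0.25. The glutamate tRNA family of novel_10360_x329 held 2406, 2149 and 1421 tags in HPC0h against 3855 and 2625 in tGCI26h a and b, and 436 in tGCI26h u, so its direction rests on the numbered libraries (log2 -0.71, limma adjusted p = 0.655). A T arm family of low values, novel_13228_x236, separated in the other direction, at 3, 6 and 4 tags in HPC0h against 2 and 2, with no value in u (log2 0.79, SE 0.27, limma adjusted p = 0.558 in the 5 numbered libraries). Families that overlapped in the numbered libraries included histidine (1773, 1757 and 1635 against 935 and 2143 tags) and glutamine (436, 613 and 280 against 235 and 478).

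Y RNA and 5S rRNA fragments had no difference beyond the spread of the numbered libraries. The leading Y RNA family, novel_4748_x984, held 5256, 7069 and 4533 tags in HPC0h and 4618, 6799 and 23610 in tGCI26h. The high ischemia value is that of tGCI26h u, and without it the means were 5619 and 5708. The 5S rRNA family of novel_14648_x205 held 260, 366 and 209 tags in HPC0h and 296, 1218 and 11983 in tGCI26h, so 2 of the 3 ischemia libraries were high and 1 lay within the HPC0h range. The 5.8S rRNA family of novel_11293_x293 went the other way, at 592, 418 and 443 against 402, 365 and 384 tags, with no overlap (log2 0.32, SE 0.19, limma adjusted p = 0.669 in the 5 numbered libraries).

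Over 23 classes, 4 had shares that did not overlap between the groups in all 6 libraries, and none passed after adjustment (each exact two-sided permutation p = 0.1, adjusted p = 0.46). The 4 were catalogued piRNAs, entries of 30 to 32 nt, glycine tRNA and the B1 SINE, and all were lower in HPC0h. They share entries and are not 4 separate results. The glycine tRNA entries rno_piR_005567 and novel_3169_x1751 are 31 and 32 nt long. Nearly all B1 tags came from the catalogued rno_piR_009428 and rno_piR_000618. Catalogued piRNAs took 0.695%, 0.760% and 0.636% of the HPC0h totals and 0.909%, 0.893% and 2.26% of the tGCI26h totals, and rno_piR_005567 is part of both this class and glycine tRNA. Entries of 30 to 32 nt took 1.72%, 2.41% and 1.65% against 2.48%, 2.61% and 5.55%. In the 5 numbered libraries glutamate tRNA and 5.8S rRNA joined these 4, with the smallest p that 3 against 2 libraries allow (0.2). These shares depend on the microRNA share, which was low in u, and outside microRNA matches none of the 4 classes separated in all 6 libraries. On that scale u lay below every HPC0h library in each of them, with glycine tRNA at 6.76% against 10.4% to 14% and entries of 30 to 32 nt at 12.2% against 18.6% to 22.6%. Catalogued piRNAs took 6.33% ± 0.311 of the HPC0h and 6.56% ± 1.70 of the tGCI26h tags (SD, n = 3 each), with u at 4.61%. In the numbered libraries all 4 classes separated on that scale too, catalogued piRNAs at 6.69%, 6.18% and 6.13% against 7.70% and 7.37%. The share of those tags that began with U was higher in HPC0h in all 6 libraries, at 51.2% ± 1.13 against 44.4% ± 3.89 (exact two-sided permutation p = 0.1, adjusted p = 0.733). Initiator methionine tRNA (means 0.0277% against 0.0149%) and 5.8S rRNA (0.439% against 0.223%) were also higher without overlap on that scale, at the same p. Over all tags the share beginning with U was 82.0% to 83.8% in HPC0h, 81.4% and 82.1% in tGCI26h a and b, and 51.8% in u.

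**Figure D4:**
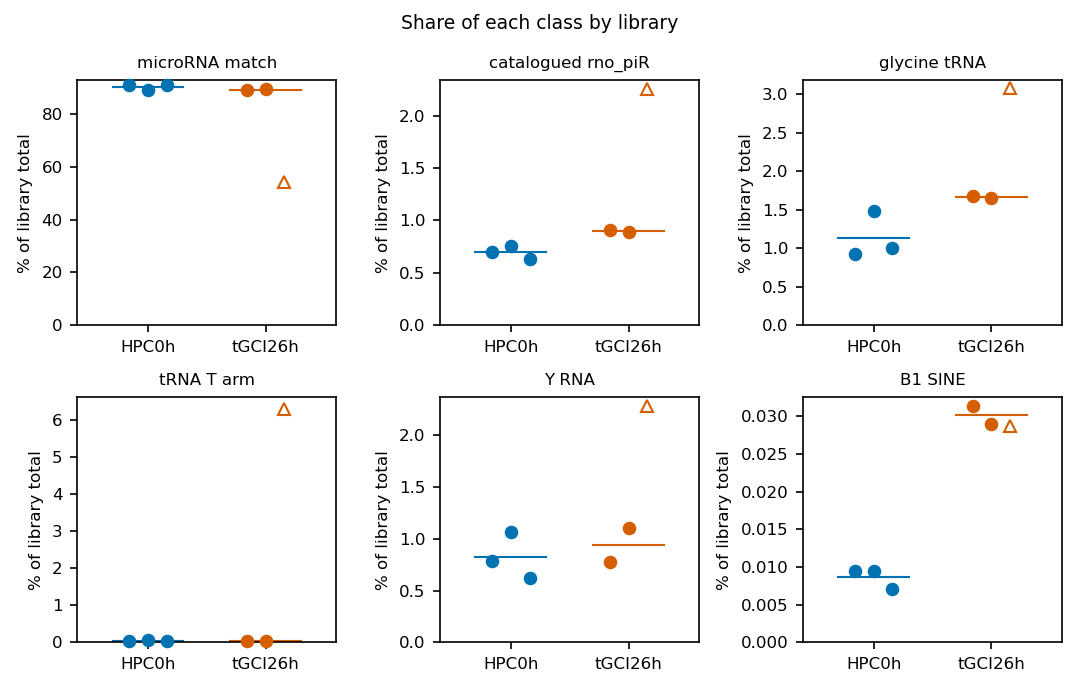
Share of the library total, in percent, taken by 6 classes in each HPC0h and tGCI26h library. Circles are numbered libraries, the open triangle is the unnumbered one, and bars are means of the numbered libraries. The B1 SINE points separate in all 6 libraries as a share of the total, but not as a share outside microRNA matches (0.0632% in the unnumbered library against 0.0806% to 0.106% in HPC0h).

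MicroRNAs made up 89.3% to 91.2% of the totals of the numbered libraries and 54.5% of tGCI26h u. The mature RefSeq sequences (GRCr8) printed below belong to microRNAs that were higher or lower in HPC0h without overlap in the numbered libraries, with the seed in capitals. The first 9 were higher in HPC0h, and miR-16-5p and miR-322-5p share the seed AGCAGCA.
rno-miR-127-3p: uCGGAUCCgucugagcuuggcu
rno-miR-132-3p: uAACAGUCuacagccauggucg
rno-miR-34a-5p: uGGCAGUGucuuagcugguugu
rno-miR-210-3p: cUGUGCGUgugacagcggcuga
rno-miR-490-3p: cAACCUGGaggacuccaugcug
rno-miR-92b-3p: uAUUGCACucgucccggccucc
rno-miR-21-5p: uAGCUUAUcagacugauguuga
rno-miR-16-5p: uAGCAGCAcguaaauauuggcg
rno-miR-322-5p: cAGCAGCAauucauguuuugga
rno-let-7f-5p: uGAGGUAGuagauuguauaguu
rno-miR-378a-3p: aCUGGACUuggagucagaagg
rno-miR-185-5p: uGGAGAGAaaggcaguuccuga
rno-miR-204-5p: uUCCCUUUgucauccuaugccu

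Of 214 families led by a microRNA match and tested in the 5 numbered libraries, 2 rose in HPC0h by the adjusted test and 0 fell. Both held 2 tags in every HPC0h library and 1 in tGCI26h a and b, had no value in tGCI26h u and did not vary within the groups. They were novel_6847_x586, a match to miR-322-5p, and novel_11777_x277, a match to the Mir879 hairpin, and their adjusted p of 0.0450 rests on values rounded to whole numbers. At an unadjusted p below 0.05 and at least 1.5-fold, 6 microRNA families were higher and 0 lower. Over all 510 families 12 were higher (2.35%) and 8 lower (1.57%). The median log2 difference was 0.09 over the 214 families, with 143 above 0, and 0.02 over all 510. Values did not overlap in 50 of the 214, 40 of them higher in HPC0h, against 88 of all 510 families (17.3%), 62 of them higher.

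miR-132-3p, which neuronal activity induces through CREB, held 1014, 1044 and 905 tags in HPC0h and 637 and 774 in tGCI26h a and b as a family. The values separated, with an HPC0h mean of 988 ± 73.1 (SD, n = 3) and 1.40 times the numbered ischemia mean, but the difference missed the threshold (log2 0.49, SE 0.13, limma adjusted p = 0.379). miR-212-3p, transcribed from the same locus, held 96, 106 and 105 tags against 55 and 86 in its leading entry. It reached 102 tags in tGCI26h u, so it overlapped when that library was kept, whereas miR-132-3p had no value there. miR-127-3p, from the imprinted Dlk1-Dio3 region, held 40882, 38283 and 35205 against 31118 and 29130 tags (log2 0.34, SE 0.08, adjusted p = 0.379).

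Among microRNAs known for hypoxia and injury, miR-210-3p, which hypoxia-inducible factor raises, held 41, 43 and 39 tags in HPC0h and 18 and 32 in tGCI26h a and b. Its HPC0h mean was 1.64 times as high, without overlap (log2 0.75, SE 0.27, limma adjusted p = 0.573). miR-34a-5p, a target of p53, held 168, 138 and 105 against 79 and 90 tags (log2 0.67, SE 0.24, adjusted p = 0.569). miR-21-5p, known to rise in reactive astrocytes, held 3009, 2692 and 3255 against 2392 and 2251 tags (log2 0.36, SE 0.10, adjusted p = 0.428). These 3 were higher in HPC0h in every numbered library. In tGCI26h u miR-210-3p and miR-34a-5p had no value and miR-21-5p was at 565 tags. miR-16-5p, at 578, 589 and 634 against 398 and 496 tags, was also higher in HPC0h in the numbered libraries, but it stood at 5038 in tGCI26h u, which turned the direction of the groups' means. miR-490-3p, at 39, 38 and 27 against 21 and 21 tags, behaved likewise, with 994 tags in u. miR-92b-3p held 25, 25 and 26 against 18 and 17 tags and had no value in u. Of the 21 leading entries of the hypoxia and injury list, 0 passed the adjusted test, 3 were higher and 0 lower at an unadjusted p below 0.05, and the median log2 difference was 0.28, with 18 above 0. Over all 2686 entries 144 were higher and 35 lower at that p, and the median was 0.

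**Figure D5:**
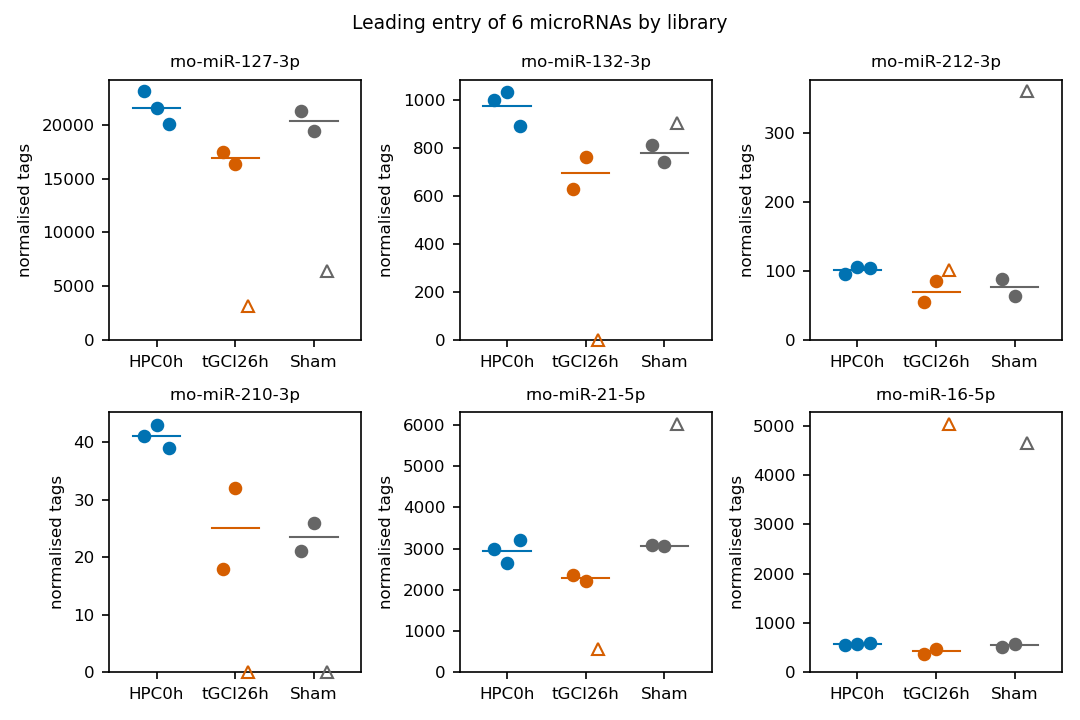
Normalised tags of the leading entry of 6 microRNAs in each HPC0h, tGCI26h and Sham library. Circles are numbered libraries, open triangles unnumbered ones and bars the means of the numbered libraries. The HPC0h circles lie above the tGCI26h circles in each panel, for example 39 to 43 against 18 and 32 tags for miR-210-3p. Most triangles fall far above or below. Exceptions are tGCI26h u for miR-212-3p, at 102 tags, and Sham u for miR-132-3p, at 905 tags, each within the HPC0h range.

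Fewer microRNAs were lower in HPC0h. let-7f-5p, an abundant member of the let-7 family of differentiated cells, held 43343, 45991 and 50691 tags in HPC0h and 67984 and 54319 in tGCI26h a and b (log2 -0.38, SE 0.13, limma adjusted p = 0.560). miR-378a-3p, encoded in an intron of Ppargc1b, held 2428, 2399 and 2654 against 3290 and 3009 tags, and miR-185-5p held 1801, 2155 and 2324 against 3173 and 2647. All 3 separated in the numbered libraries, and none passed. In tGCI26h u let-7f-5p was at 780 tags, miR-378a-3p at 2123 and miR-185-5p had no value, so library u lay below every HPC0h library. miR-16-5p, miR-92b-3p, miR-322-5p, miR-378a-3p and miR-185-5p were picked after their values were seen. miR-204-5p, abundant in choroid plexus, was lower in HPC0h in every library, at 107, 91 and 111 against 133, 142 and 2124 tags (log2 -0.42, SE 0.12, adjusted p = 0.428 in the 5 numbered libraries).

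The most abundant microRNA families differed little in the numbered libraries. miR-9a-5p, a microRNA of neural tissue, held 170173, 167782 and 173922 tags in HPC0h and 159222 and 156495 in tGCI26h a and b, a ratio of 1.08 (limma adjusted p = 0.437). miR-128-3p, enriched in neurons, held 110363, 99247 and 93600 against 91517 and 91265, and miR-7a-5p held 67601, 78944 and 64866 against 68376 and 94642. miR-9a-5p and miR-128-3p separated by small folds and miR-7a-5p overlapped. In tGCI26h u the first 2 were at 31712 and 53838 tags and miR-7a-5p had no value. miR-7a-5p, miR-148a-3p and let-7b-5p were among 15 families with a mean of at least 1000 tags in the numbered libraries that had no value in library u.

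Families without a microRNA or motif match also separated the groups in the numbered libraries, and none passed the adjusted limma test. novel_7984_x470 held 6, 10 and 8 tags in HPC0h and 19 and 21 in tGCI26h a and b, and novel_8940_x403 held 165, 228 and 96 against 265 and 285. novel_14397_x210 held 359, 468 and 421 against 515 and 604. These were lower in HPC0h, and the following were higher. novel_10683_x316 held 1772, 1711 and 1724 against 1403 and 1428 tags (log2 0.29, SE 0.05, limma adjusted p = 0.217), and novel_12566_x253 held 200, 232 and 169 against 162 and 152. novel_5075_x892 held 28, 22 and 19 against 11 and 16, and novel_11651_x281 held 24, 20 and 14 against 10 and 12. In library u novel_8940_x403 and novel_14397_x210 were at 1195 and 5151 tags and the other 5 had no value.

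Library tGCI26h u held large values of families that were far lower in the 5 numbered libraries. novel_5261_x848, a T arm family of 35 entries, summed to 56142 tags in it and to 81 to 269 in the numbered libraries. Matches to miR-329-3p reached 8223 tags against 3 to 5, and T arm motifs took 6.30% of its total against 0.0283% to 0.0546%. Sham u shared this in part. It held 2901 tags of novel_5261_x848 against 183 and 132 in Sham a and b, and 157 against 3 and 5 for miR-329-3p. The rest of this paragraph concerns tGCI26h u. Many other families had no value in it. Of 611 families, 441 were above 0 in a numbered library and blank in u, where blanks were set to 0. With all 6 libraries the median log2 difference over 510 families was 0.86 (HPC0h minus tGCI26h), with 368 above 0, against 0.02 in the 5 numbered libraries. With blanks left out as missing values the median with 6 libraries was -0.08. With blanks as 0, values did not overlap in 48 of 510 families (9.41%), 37 higher (7.25%) and 11 lower (2.16%) in HPC0h, and 6 of the 11 were the catalogued piRNAs above.

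By count, limma called 0 of 510 families (0%) and 0 of 2689 entries (0%) between HPC0h and tGCI26h with 6 libraries. At an unadjusted p below 0.05 and at least 1.5-fold there were 2 families (0.392%), both with at most 2 tags, and 14 entries (0.521%). With the 5 numbered libraries 3 of 510 families and 17 of 2686 entries (0.633%) passed, 12 of the entries higher and 5 lower in HPC0h. Of those 17 entries 16 had identical values within each group and both means under 10 tags, and the other was rno_piR_009428. At an unadjusted p and 1.5-fold, 20 families (3.92%) and 69 entries (2.57%) were counted, 9 of the 20 families with a mean of at least 10 tags in the higher group. The count was thus 69 among entries and 20 among families, 6 of the 20 being single catalogued piRNAs. Families were summed and tested anew, so the 20 are not simply the 69 merged. Entry rno_piR_000119, for example, counts among the 69 while its family does not count among the 20.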

How the data were processed

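The labels' protocols describe Trizol extraction, adaptor ligation and size selection near 30 nt before Illumina sequencing. Cutadapt 1.9.3 and Novoalign 3.02.12 appear in the submitters' processing notes. The genome build and the normalisation rule are not given in the sources used here. Each deposited value is a score, a tag count that the authors normalised and rounded. Blanks were set to 0, and 11 emptied lines were not analysed here. Entries sharing 16 nt were summed as families. Differences were tested with limma 3.58.1 (R 4.3.3) with a trend on log2(value + 1), which understates changes of low values. Only the groups compared were fitted, over features with a mean of at least 1 tag, with Benjamini-Hochberg adjustment at 0.05. A fold of exactly 1.5 counted as reached. Class shares were tested by exact permutation of libraries (scipy 1.17.1). Classes other than RefSeq microRNA matches (a shared run of 16 nt) rest on motifs of 7 to 9 letters and are matches, not annotations. The fit was first tested on simulated data and made too many false calls there, mostly of low rounded values identical within each group. The limit of that test was then changed to leave such calls out, and in the real data they are reported apart. Families were named, for each fit and direction, if they passed with a mean of at least 10 tags in the higher group. Up to 10 were filled by the smallest p among families without overlap, of at least 1.5-fold. The 10 most abundant families and catalogued entries and the leading family of each class were added, and the text gives those that separate the groups or lead a class. The members and lists were chosen with earlier results of these data known. Alternatives changed the pseudocount, filter, scaling, variance model, blanks, groups fitted, libraries and joining rule.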

Additional observations from a re-analysis of the deposited data

How the results depend on the processing

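With 6 libraries the counts rose when blanks were left out as missing values, to 15 entries and 2 families passing the adjusted test (0 and 0 as reported), and to 57 entries and 13 families at an unadjusted p and 1.5-fold (14 and 2 as reported). Those 14 entries became 5 with a pseudocount of 5, 39 with no filter, 0 with a mean of at least 10, 1 with a mean of at least 50, 23 with quantile normalisation and 3 without a trend. Those 2 families became 4 with no filter, 6 with quantile normalisation and 1 with TMM scaling or without a trend. They became 0 with a pseudocount of 0.5, a mean of at least 10 or 50, all 3 groups in 1 fit, a shared run of 18 nt, end overlap, joining without chains, or the most abundant member.

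Without library u the 17 entries passing became 61 with no filter, 29 with robust limma, 2 with median-of-ratios or TMM scaling, 1 with a mean of at least 50, and 0 with a mean of at least 10 or all 3 groups in 1 fit. The 3 families became 6 with no filter, 5 with all 7 numbered libraries or the most abundant member, 1 with robust limma or a mean of at least 50, and 0 with a pseudocount of 5, another scaling, no trend, all 3 groups in 1 fit or joining without chains. At an unadjusted p and 1.5-fold, the 69 entries and 20 families became 15 and 11 with a pseudocount of 5, 17 and 12 with a mean of at least 10, 7 and 5 with a mean of at least 50, and 6 and 5 with all 3 groups in 1 fit.

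Leaving out 1 library at a time gave 0 to 17 entries and 0 to 3 families passing out of 6 libraries, and 36 to 54 entries and 0 to 9 families out of the numbered 5. At an unadjusted p and 1.5-fold the ranges were 0 to 69 entries and 0 to 20 families, and 79 to 161 entries and 18 to 41 families. Classes without overlap ranged from 5 to 10 and from 8 to 15. Fewer libraries make separation easier, so these class counts say nothing about stability. Among named families, only novel_3169_x1751 with median-of-ratios scaling of 6 libraries (0.01) and novel_11739_x278 with a shared run of 14 nt in the numbered 5 (0.25) reversed. The cause was not tested for the first, and the second merged with other entries. With 6 libraries median-of-ratios and TMM scaling moved the median log2 difference of all families by 0.19 and 0.11, and quantile normalisation by -0.64.

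No paired analysis was possible because the columns carry no replicate numbers of the labels. The mean of at least 50 and the fit of 7 numbered libraries were chosen after seeing the data. Depth is unknown, so no counting interval can be given, and values of a few tags carry rounding error.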
